A study of Zea mays with 3 samples.

Results

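The part of the genome described here is chromosome 7 of the maize build B73 RefGen_v4 from 49000001 to 65000000, taken as 1600 bins of 10 kb out of 210639 such bins on chromosomes 1 to 10. It was chosen by position, with earlier values of these data known, because it holds a narrow site near 56.6 Mb that was high in all libraries. The folds of that site are therefore given as a description and without a test. The study comprised 3 anti-CENH3 chromatin immunoprecipitation libraries (ChIP-seq) from young maize leaves, 1 each of the lines F3-152, F3-600 and B73, with B73 labelled as the control. The series title names irradiated material, and the labels give neither the origin of the F3 lines nor the number of plants in a library. Nuclei of all lines were digested with micrococcal nuclease, the precipitated DNA was sequenced as paired ends, and the reads were placed on the B73 genome. The libraries held 21026602 (F3-152), 14454963 (F3-600) and 7716211 (B73) deposited reads. Of the reads on chromosomes 1 to 10, 1.21% of F3-152, 1.12% of F3-600 and 1.01% of B73 fell in the interval. Line and sequencing instrument cannot be told apart, because each library came from an instrument of its own. With 1 library per line no difference between lines was tested, and all intervals below are 95% intervals for counting error only, taken over fragments (both mates of a pair counted once). Duplicates were kept, which these intervals do not take into account.

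CENH3 is the histone H3 variant that replaces H3 in part of the nucleosomes of an active centromere and on which the kinetochore is built. In maize the DNA under CENH3 is made largely of the tandem repeat CentC and of centromeric retrotransposons of the CRM families, mixed with sequence of lower copy number. Short reads can be placed with confidence only on the sequence that differs between copies, so long arrays of near-identical repeats stay empty in a track of well-placed reads. No input library was used here, so the values below are read densities of the precipitated DNA and not enrichment over input.

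Signal is given as the fold of a bin, that is, its reads over the median of all non-empty bins of chromosomes 1 to 10 in the same library. This median was 90 reads in F3-152, 64 in F3-600 and 32 in B73. A bin at 10 times the median or more was called enriched. The interval held 9 enriched bins in F3-152, 7 in F3-600 and 7 in B73, or 0.563%, 0.438% and 0.438% of its 1600 bins. Across all non-empty bins of chromosomes 1 to 10 the shares were 0.315% in F3-152, 0.241% in F3-600 and 0.358% in B73, and nothing is read from this difference, since the interval was picked for its high bins. The enriched bins together were only 9 different bins. Of the 1600 bins of the interval, 6 were enriched in all 3 libraries, against 254 of the 210639 bins of chromosomes 1 to 10 (0.121%). Nothing is read from this sharing either, since the interval was picked for a site high in all libraries. None of the 9 bins was enriched in 1 library and below 2 times the median in another, a count of 0 bins. The bin starting at 56630001 came close, at 2.42 (1.95 to 2.97) in F3-600 against 39.1 in B73. No share over chromosomes 1 to 10 is given for this count, so nothing is read from it. The 9 enriched bins made 3 groups when bins up to 500 kb apart were joined. One was a single bin at 56.06 Mb, one the narrow site between 56630001 and 56670000, and one a pair of clusters between 58510001 and 58810000 on either side of a stretch with no reads. No group reached 10 enriched bins in any library, so the interval showed no broad CENH3 domain by this rule and the label of a centromere rests here on narrow sites alone.

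**Figure D1:**
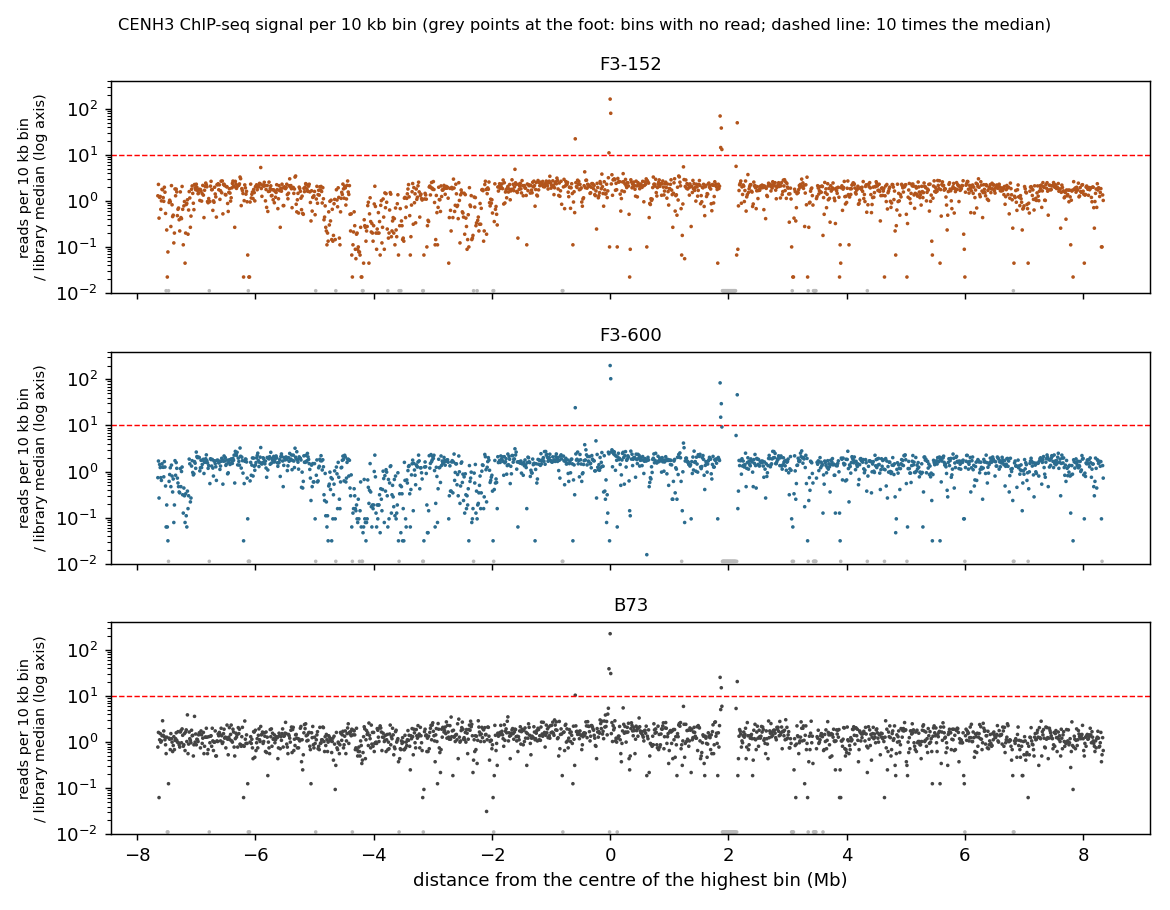
Fold per 10 kb bin (log axis) against distance from the centre of the highest bin, with F3-152 on top, F3-600 in the middle and B73 at the bottom. The dashed line marks 10 times the median, and grey points at the foot are bins with no read. Of the 9 bins that stand above the line in any library, 6 do so in all 3, and the run of grey points near 2 Mb is shared by all of them.

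The enriched bins took up 16.4% of the reads of the interval in F3-152, 19.9% in F3-600 and 15.1% in B73. The bins were called for their many reads, so nothing is read from the size of these shares. Over fragments the shares were 17.6% (95% exact binomial interval 17.4% to 17.8%) in F3-152, 22.0% (21.7% to 22.2%) in F3-600 and 17.9% (17.6% to 18.3%) in B73. The threshold fell into a gap of the values in F3-152, where the lowest enriched bin was at 11.03 and the highest bin below the threshold at 5.62. In F3-600 the corresponding values were 15.1 and 9.27, and in B73 they were 10.4 and 6. The bin at 9.27 in F3-600 was the same bin, starting at 58540001, that was at 6 in B73 and was enriched, at 13.0, in F3-152.

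The highest bin of the interval ran from 56650001 to 56660000 in every library. It held 14590 reads in F3-152, 12782 in F3-600 and 7231 in B73. Its fold was 162 (159 to 166) in F3-152, 199.7 (195 to 204) in F3-600 and 226 (220.2 to 232) in B73. Among all bins of chromosomes 1 to 10 it ranked 7 in F3-152, 9 in F3-600 and 4 in B73, so it was one of the strongest places of each library. The next bin, from 56660001 to 56670000, held 7180, 6615 and 987 reads in F3-152, F3-600 and B73. There the F3 lines were the higher ones, with folds of 79.8 (77.3 to 82.3) in F3-152 and 103 (100.2 to 107) in F3-600, against 30.8 (28.6 to 33.2) in B73.

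The order of the libraries was the opposite in the third bin of the site. From 56630001 to 56640000 there were 993 reads in F3-152 and 155 in F3-600, against 1252 in B73. The folds were 11.03 (10.2 to 11.9) and 2.42 (1.95 to 2.97) in the F3 lines, against 39.1 (36.8 to 41.6) in B73, and F3-600 alone did not reach the threshold. The bin between them, starting at 56640001, was nearly empty, with 9 reads in F3-152, 2 in F3-600 and 0 in B73. A count of 0 allows up to 3 fragments. The narrow site was therefore split by a gap into a left part that was strong in B73 and a right part that was strong in all libraries.

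Averaged over the 3 bins enriched in B73, the site stood at 84.3 times the median (82.9 to 85.8) in F3-152, 101.8 times (99.98 to 103.7) in F3-600 and 98.6 times (96.4 to 100.9) in B73. The medians over the same bins were 79.8, 103 and 39.1, which puts B73 last, whereas the means put F3-152 last. The ratio of the mean folds was 0.855 (0.831 to 0.879) for F3-152 over B73 and 1.03 (1.003 to 1.06) for F3-600 over B73. The ratio of F3-152 changed direction only when the 200 bp named below were left out, and that of F3-600 only with fragments. Counted as fragments the ratios were 0.644 and 0.800. Without the 200 bp that held the most reads, an alternative chosen after seeing the data, they were 1.45 and 1.998.

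**Figure D2:**
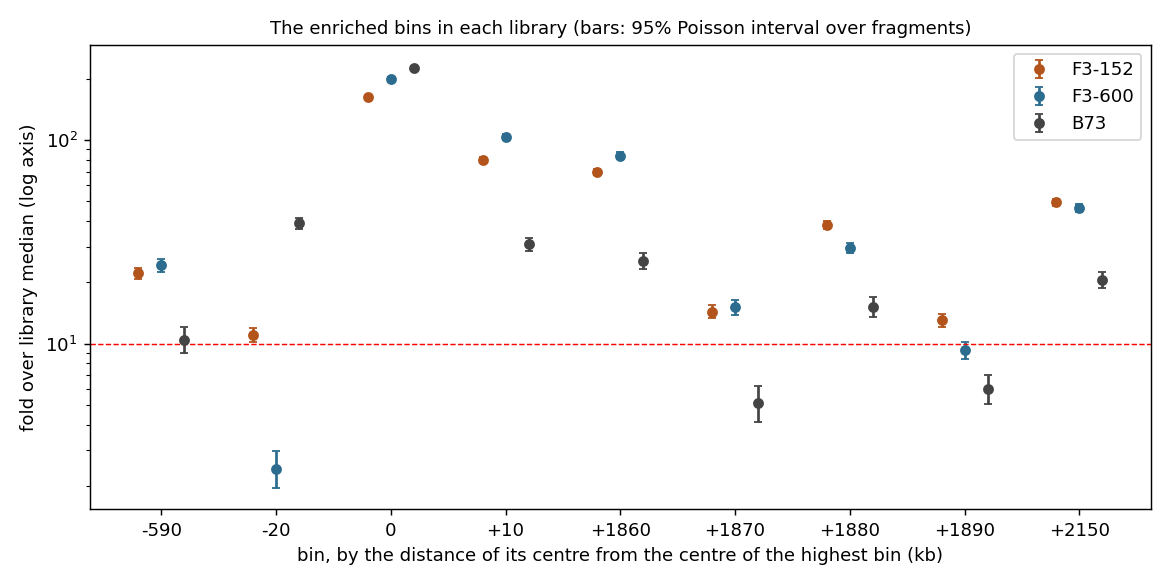
Fold (log axis) of each of the 9 enriched bins in F3-152, F3-600 and B73, ordered by the distance of the bin from the highest bin, with 95% Poisson intervals over fragments. B73 is highest in the bin at distance 0 and in the left bin of the narrow site, and lowest in the other 7.

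The reads of the site lay in a small part of it. Of its 40 windows of 1 kb, 7 held 90% of the reads in F3-152, 6 in F3-600 and 7 in B73. Any read at all lay in 26, 24 and 24 of the windows in F3-152, F3-600 and B73. The window from 56657001 to 56658000 was the highest in each library, with 8714 reads in F3-152, 6140 in F3-600 and 5996 in B73. These were 38.3%, 31.4% and 63.3% of the reads of the site. The same window thus led in all lines, but it carried most of the site only in B73. The window from 56660001 to 56661000 was second in both F3 lines, with 4484 reads in F3-152 and 3471 in F3-600, and it held 542 reads in B73, where the left part of the site, from 56630001 to 56631000, was second with 646.

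Within the highest window the leading 100 bp, from 56657601 to 56657700, were the same in all libraries, with 3854 reads in F3-152, 2399 in F3-600 and 3018 in B73. Most B73 reads of the window came from 200 bp, from 56657501 to 56657700. These bases held 6538 reads in F3-152, 3648 in F3-600 and 5490 in B73, which is 44.8%, 28.5% and 75.9% of the reads of their 10 kb bin. Many of these reads were exact repeats of a position. Reads packed this densely into 200 bp can share a position without being copies, so repeats do not measure duplication alone. Distinct combinations of start, end and strand made up 19.3% in F3-152, 22.9% in F3-600 and 13.6% in B73, and the most repeated one accounted for 371, 133 and 503 reads. Reads on the plus strand were 39.8% in F3-152, 37.9% in F3-600 and 16.3% in B73, the most uneven of the libraries. With these 200 bp left out, the bin stayed far above the threshold, at 89.5 times the median in F3-152 and 142.7 times in F3-600, against 54.4 times in B73. The order of the lines in the highest bin then turned, and both F3 lines stood above B73.

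**Figure D3:**
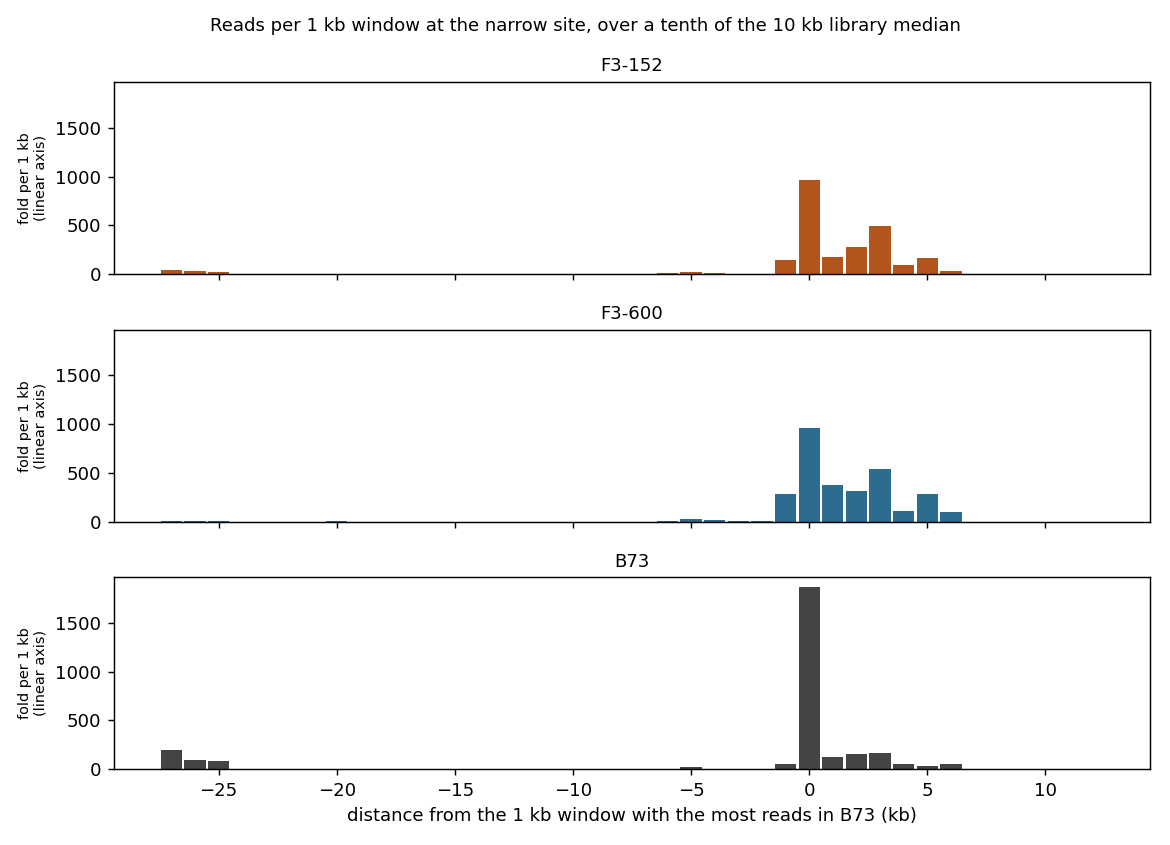
Fold per 1 kb window (linear axis, common to the panels) along the 40 kb of the narrow site for F3-152, F3-600 and B73, by distance from the window with the most B73 reads. One window leads in every library. The windows up to 5 kb to its right are taller in the F3 lines than in B73, and those at the left end of the site are tallest in B73.

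The reads of the site were placed with less confidence than those around it. Mapping quality, the aligner's score for the placement of a read, had a median of 30 in F3-152, 29 in F3-600 and 29 in B73 over the 3 bins. In the 1591 bins of the interval that were enriched in no library the median was 60 in each. Reads at a quality of 30 or more were 52.7%, 48.2% and 48.0% of the site in F3-152, F3-600 and B73, against 88.8%, 88.5% and 89.5% in those other bins. The share of distinct reads was also lower, at 38.3%, 43.1% and 29.97% in the site, against 98.1%, 98.7% and 80.2% elsewhere in the interval. This share falls with the number of reads per base, and that effect was not separated here. In B73 only 26.6% of the reads at the site were on the plus strand, against 49.7% elsewhere, while F3-152 was at 46.4% and F3-600 at 47.6%. The part of these properties in the height of the site was not tested, but it can be measured without the reads concerned. With only reads of a quality of at least 30 the site was at 50.6, 56.1 and 52.3 times the median in F3-152, F3-600 and B73. With duplicates collapsed it was at 32.6, 44.6 and 33.8 times, above the threshold in each library. Collapsing removes all repeats of a position, whether or not the reads are copies.

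Mates were lost more often at the site. Both mates of a fragment lay in its 3 bins for 76.3% of the fragments in F3-152, 69.9% in F3-600 and 26.5% in B73, and 23.6%, 29.97% and 72.3% of the fragments had only 1 deposited mate on chromosomes 1 to 10. In the other bins of the interval both mates were present for 95.4%, 94.4% and 60.7%. Mates on another chromosome were rare, with 11 of 12908 fragments in F3-152, 7 of 11511 in F3-600 and 85 of 7489 in B73. Fragments with both mates had a median length of 151 bp in F3-152, 207 bp in F3-600 and 171 bp in B73 at the site, against 168, 304 and 186 bp elsewhere in the interval. They were thus shorter at the site in all libraries, most of all in F3-600, the library with the longest fragments. These lengths rest on the pairs that kept both mates, which are a minority at the site in B73.

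The second group of enriched bins lay about 1.9 Mb to the right of the site. The bin from 58510001 to 58520000 held 6263 reads in F3-152 and 5373 in F3-600, against 815 in B73. This is 69.6 (67.3 to 72.0) and 84.0 (81.0 to 87.0) times the median in the F3 lines, against 25.5 (23.3 to 27.7) in B73. From 58530001 to 58540000 the folds were 38.2 in F3-152 and 29.7 in F3-600, against 15.2 in B73. The bins starting at 58520001 and 58540001 were lower and crossed the threshold in F3-152 (14.4 and 13.0) and in part in F3-600 (15.1 and 9.27), and not in B73 (5.09 and 6). Each library had its reads at the same places. In every library 90% of the reads between 58510001 and 58810000 fell in 10 of the 300 windows of 1 kb. Only 42 windows in F3-152, 36 in F3-600 and 33 in B73 held any read, since the span includes the stretch with no reads. The windows starting at 58510001 and 58511001 were among the highest 3 in each library.

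Beyond this cluster came the longest run of bins without a read in any library, 23 bins or 230 kb from 58550001 to 58780000. At the median of each library these bins would have held 2070 reads in F3-152, 1472 in F3-600 and 736 in B73. From the last base covered on the left to the first on the right, the stretch measured 240.2 kb in F3-152, 240.4 kb in F3-600 and 245 kb in B73. Signal was high on its far side as well. The bin starting at 58780001 was at 5.62 times the median in F3-152, 6.05 in F3-600 and 5.38 in B73. The bin from 58800001 to 58810000 was at 49.6 (47.7 to 51.6) in F3-152 and 46.3 (44.1 to 48.5) in F3-600, against 20.7 (18.9 to 22.6) in B73. The bins between and beyond them were low, with at most 8 reads in the bins starting at 58790001 and 58810001 in F3-152, at most 10 in F3-600 and at most 6 in B73. The enriched bins thus stood on both sides of an empty stretch. The sequence of the reference there was not analysed here.

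**Figure D4:**
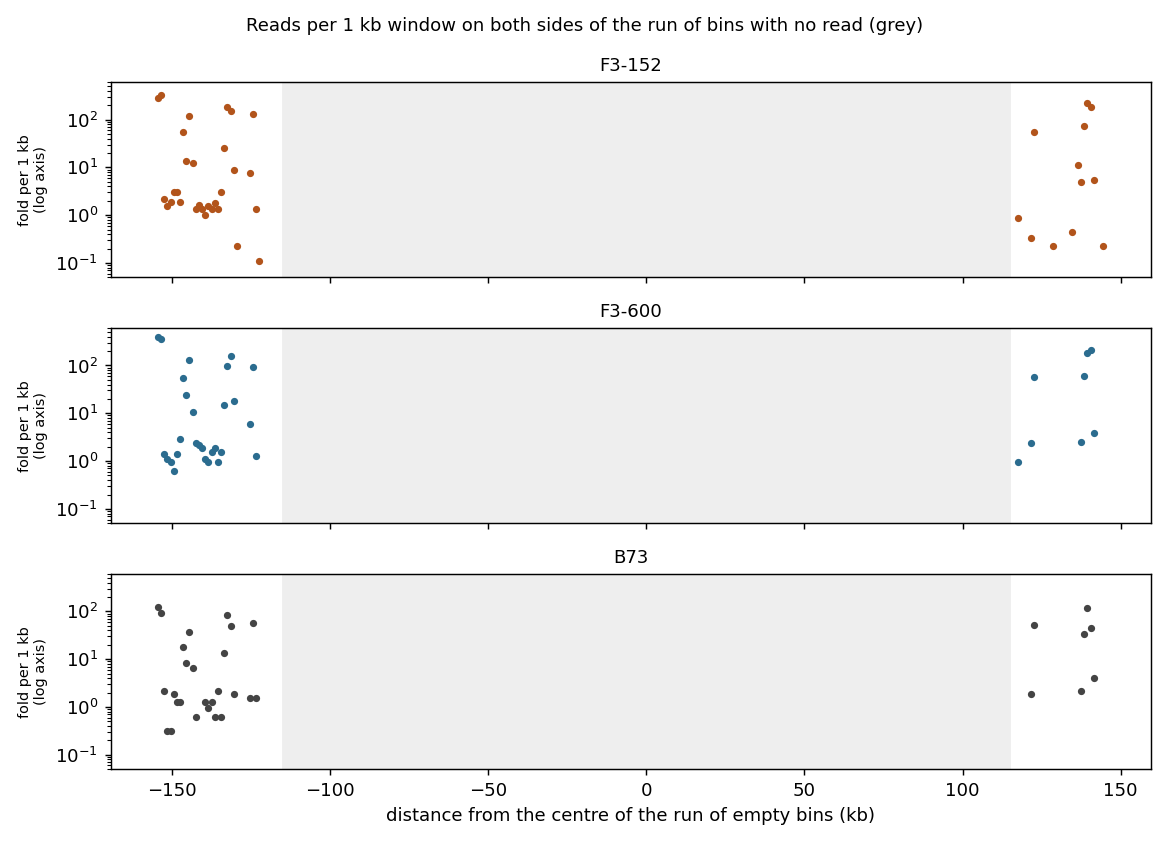
Fold per 1 kb window (log axis, windows with at least 1 read) on both sides of the run of 23 empty bins (grey) for F3-152, F3-600 and B73, by distance from the centre of the run. The peaks fall at the same places in the libraries, and no read lies in the grey stretch.

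Empty bins were otherwise scattered. In all, 38 of the 1600 bins (2.38%) had no read in any library, against 1.71% of all bins of chromosomes 1 to 10. Besides the long run there was 1 run of 5 bins from 60090001 to 60140000, and the other 10 empty bins stood alone. Each library taken by itself had 51 (F3-152), 60 (F3-600) and 52 (B73) empty bins.

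The bin from 56060001 to 56070000 differed from the others in its reads. It was at 22.2 (20.9 to 23.7) times the median in F3-152 and 24.3 (22.6 to 26.0) in F3-600, against 10.4 (8.97 to 12.1) in B73. Its highest window of 1 kb held 35.2% of its reads in F3-152, 31.4% in F3-600 and 29.6% in B73, the smallest share among the enriched bins in each library. The highest 3 windows of 1 kb, starting at 56062001, 56064001 and 56067001, were the same in the 3 libraries. Both mates were kept for 99.1% of its fragments in F3-152, 98.8% in F3-600 and 85.6% in B73, and the strands were even, at 49.98%, 50.03% and 49.7% plus. Fragment lengths, with medians of 166, 307 and 189.5 bp, were close to those of the bins around it. Its median mapping quality was nevertheless the lowest of the enriched bins, at 24, 23 and 23, and with only reads of at least 30 it fell below the threshold in each library (9.05 in F3-152, 9.86 in F3-600 and 4.41 in B73).

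The enriched bins were also set against B73, as a description only. In 7 of the 9 bins the fold was higher in both F3 lines than in B73. The ratio ranged there from 2.13 (56060001) to 2.82 (58520001) in F3-152 and from 1.54 (58540001) to 3.35 (56660001) in F3-600. All of these ratios stayed above 1 with a mapping quality of at least 30, with collapsed duplicates, with fragments in place of reads and under both other scalings. Collapsing duplicates brought them down to between 1.35 and 2.01 in F3-152 and between 1.42 and 2.45 in F3-600. In F3-152 the ratio moved by over 1.5 times at 56060001 (1.35), 56660001 (1.62) and 58530001 (1.56). The bin starting at 56630001 was lower in the F3 lines, with ratios of 0.282 (0.255 to 0.312) for F3-152 and 0.0619 (0.0495 to 0.0767) for F3-600, and it stayed lower under the same alternatives, at 0.473 and 0.131 with collapsed duplicates. The bin starting at 56650001 had ratios of 0.717 and 0.884, of which that of F3-600 turned to 1.29 with collapsed duplicates and to 1.01 when scaled to chromosome 7. With 1 library per line, line and library cannot be told apart in these ratios. The bin starting at 58520001 entered the list through the F3 lines only, and that starting at 58540001 through F3-152 only. A fold above that of B73 was fixed in advance for those libraries there. Most of the 7 bins also lay close together, between 58510001 and 58810000. No such share is given for the enriched bins elsewhere, so nothing is read from the count of 7.

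Away from the enriched bins the interval was moderately above the rest of its chromosome. The median bin stood at 1.62 in F3-152, 1.39 in F3-600 and 1.28 in B73, against 0.989, 0.828 and 1 over the 16639 other bins of chromosome 7. Bins at 2 times the median or more were 487 in F3-152, 218 in F3-600 and 226 in B73, or 30.4%, 13.6% and 14.1% of the interval, against 9.34%, 5.45% and 5.22% of the rest of the chromosome. High stretches lay in the middle of the interval and also away from it. Of the 183 stretches of 1 Mb on chromosome 7, those from 55 to 58 Mb held ranks 1 to 3 in F3-152, with medians of 2.13, 2.04 and 2.06. The same stretches held ranks 5, 2 and 1 in F3-600 (1.66, 1.72 and 1.73) and ranks 2, 1 and 2 in B73 (1.53, 1.64 and 1.53). The stretch from 50 to 51 Mb ranked 7 in F3-152 (1.80) and 3 in F3-600 (1.66), against 15 in B73 (1.17). That from 59 to 60 Mb ranked 4 in F3-152 (1.92), 6 in F3-600 (1.58) and 5 in B73 (1.31). All of these medians were far below the threshold.

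Parts of the interval were low in the F3 lines only. From 52 to 53 Mb, the lowest of its 1 Mb stretches in both, the median bin was at 0.289 in F3-152 and 0.297 in F3-600. In B73 it was at 1.16, and this stretch ranked 179 and 173 of 183 in the F3 lines, against 19 in B73. Low F3 values also lay outside this stretch. In the 100 kb from 54.3 Mb the medians were 0.311 in F3-152 and 0.266 in F3-600, against 1.23 in B73. Among the 1441 bins at 0.5 times the median or more in B73, 92 in F3-152 (6.38%) and 114 in F3-600 (7.91%) were below 0.25 of the B73 fold. Over chromosomes 1 to 10 the shares were 14.2% in F3-152 and 15% in F3-600, so the interval had fewer such bins than the genome. The lines shared 75 of them, 81.5% of the F3-152 bins and 65.8% of the F3-600 bins, and these 75 were 5.20% of the bins considered, against 9.84% over chromosomes 1 to 10. The longest run, from 52260001 to 52580000, had medians of 0.122 in F3-152 and 0.109 in F3-600, against 1.09 in B73. Of its 32 bins, 22 in F3-152 and 21 in F3-600 were below 0.25 of the B73 fold, and 19 were so in both. The run held 600 and 414 reads in the F3 lines, against 1186 in B73, the shallowest library. In its low bins an F3 fold below that of B73 was fixed by the rule, so nothing is read from this order. These limits were chosen after the values were seen.

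F3-600 was low at further places, and that at the left end of the narrow site and beyond it is described here. Other runs of bins below 0.25 of the B73 fold in F3-600 began at 49420001, 51840001, 52610001, 52690001, 52950001, 53110001, 54150001 and 54380001. In all of these but the first F3-152 was low as well. Its medians there were 0.2 to 0.433, against 0.109 to 0.305 in F3-600 and 0.969 to 1.66 in B73. From 49420001 to 49510000 such bins were 8 of 9, with medians of 0.778 in F3-152 and 0.297 in F3-600, against 1.41 in B73. Of the 8 bins from 56560001 to 56640000, the last in the site, 6 were below 0.25 of the B73 fold in F3-600. The median there was 0.344 in F3-600, against 3.34 in B73. F3-152 was at 1.69 in the same bins. The highest of these bins outside the site in B73, at 5.44, was the bin starting at 56620001, where F3-152 was at 3.18 and F3-600 at 2.63. The left part of the narrow site, strong in B73 and weak in F3-600, lay at the end of this stretch of 80 kb. F3-600 was lowest and B73 highest in every bin of it. In 6 of the 8 bins F3-600 below B73 was fixed by the rule that chose the stretch, so nothing is read from this order.

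**Figure D5:**
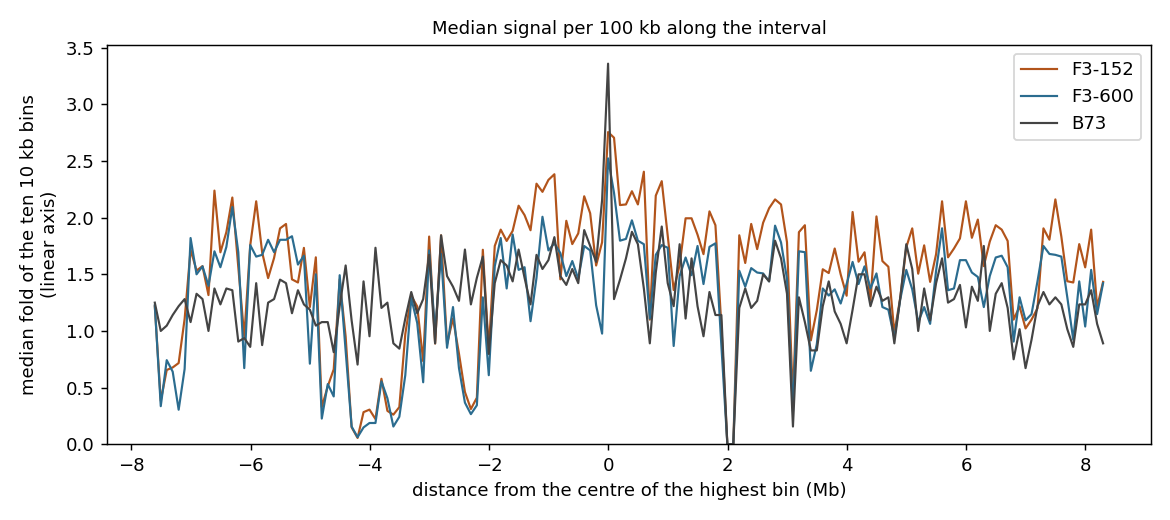
Median fold of the 10 kb bins in each 100 kb of the interval (linear axis) for F3-152, F3-600 and B73, by distance from the centre of the highest bin. The F3 lines drop together about 4 Mb left of the centre, where the median per 1 Mb was 0.289 in F3-152 and 0.297 in F3-600, against 1.16 in B73, and all lines reach 0 in the empty run near 2 Mb.

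The reads of the narrow site were also set beside those of the broad CENH3 domains that the same rule found in B73 on 7 other chromosomes, each with at least 10 enriched bins. The mean fold of these domains in B73 ran from 20.5 to 27.6, against 98.6 at the site, and nothing is read from this, since the site was picked for its height. In B73 the highest window of 1 kb held 0.228% to 6.73% of the reads of such a domain, against 63.3% at the site, although a domain has more windows over which to spread. Distinct reads were 67.3% to 78.0% of the broad domains in B73, against 29.97% at the site, where reads were denser, and this share depends on density. Reads at a quality of 30 or more were 75.3% to 92.0%, against 48.0%. The plus strand held 45.4% to 49.9%, against 26.6%. The domains were called in B73, and some were close to the library median in the F3 lines. On chromosomes 2 and 8 the mean fold was 1.43 and 1.92 in F3-152, and on chromosomes 2, 8 and 9 it was 1.41, 1.58 and 1.59 in F3-600. In the other domains distinct reads were 75.003% to 87.2% in F3-152 and 75.3% to 87.8% in F3-600, against 38.3% and 43.1% at the site.

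Narrow sites were also the B73 groups with the most reads on chromosomes 1 and 6. The 7 bins on chromosome 1 had 48.1%, 48.8% and 50.8% distinct reads and 46.3%, 45.6% and 43.0% of reads at a quality of 30 or more in F3-152, F3-600 and B73. Their mean folds were 51.0, 90.2 and 81.9. The single bin on chromosome 6 was at 51.4 in F3-152 and 47.7 in F3-600, against 241.8 in B73, with 54.8%, 55.0% and 32.8% distinct reads. The site on chromosome 7 had the lowest share of distinct reads of the 3 places in each library.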

How the data were processed

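Anti-CENH3 ChIP-seq libraries of F3-152, F3-600 and B73 (1 each) were used. Per the labels and the study's methods, the authors mapped paired-end reads to B73 RefGen_v4 with BWA and kept uniquely placed ones. The mapping is described for B73 alone. The submitters' processing notes also name CASAVA. Each line of the deposited tables is an aligned read with coordinates and a mapping quality score, which ran from 20 to 60 and is not normalized. Removal of duplicates is not given in the sources used here.

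Each read was assigned to the 10 kb bin that held its midpoint, and bin counts were divided by the median of the library's non-empty bins on chromosomes 1 to 10. Enriched bins (10 times or more) up to 500 kb apart were joined. The narrow site was the B73 group with the most reads. Intervals are exact Poisson or binomial at 95% over fragments, scaled to the read values. Where no read was found, up to 3 fragments were allowed for. No test was run, with 1 library per line. The sites named are all enriched bins, their highest windows, the longest empty run and the ends of the interval. Alternatives changed the bin size and place, threshold, mapping quality, duplicates, counting unit and scaling. The interval, lists and limits were chosen with earlier results of these data known. No genome or annotation of the build was used here, so sequences, repeats and genes were not analysed here. Computations ran in Python (3.11.15) with SciPy (1.17.1), NumPy (2.4.6) and pandas (2.3.3), and plots were drawn with Matplotlib (3.10.9).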

Additional observations from a re-analysis of the deposited data

How the results depend on the processing

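Of 231 alternative values for 32 results, 102 moved by less than their counting interval (for counts of bins, by at most 1.5 times), 123 moved by more and 6 changed direction. Leaving out the 200 bp with the most reads, and the alternatives per bin, were chosen after seeing the data. In each list the values are those of F3-152, F3-600 and B73.

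The number of enriched bins was 14, 13 and 9 with bins of 5 kb, 12, 9 and 13 with a threshold of 5, and 5, 5 and 4 with a mapping quality of at least 30. In F3-152 it was 6, a change of exactly 1.5 times, with bins of 20 kb, with collapsed duplicates and with a threshold of 20. The bins enriched in all 3 libraries were 3 with that quality, 5 with collapsed duplicates and 5 with fragments. The fold of the highest bin was 307, 376 and 445 with bins of 5 kb, 81.1, 101 and 109.6 with bins of 20 kb, and 236, 297 and 253 with bins shifted by 5 kb. These 3 changes follow from the size or place of the bins. It was 95.1, 105 and 112 with a quality of at least 30, 56.5, 81.5 and 63.3 with collapsed duplicates, 182, 226 and 335 with fragments, 152, 220.4 and 219 with the chromosome 7 median, 168, 209.5 and 226 with empty bins in the median, and 89.5, 142.7 and 54.4 without the 200 bp.

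The share of reads in enriched bins was 16.5%, 20.5% and 14.9% with bins of 5 kb, 15.8%, 20.2% and 14.4% with bins of 20 kb, 16.3%, 19.3% and 14.3% with shifted bins, and 8.69%, 10.6% and 7.52% with a quality of at least 30. It was 7.19%, 10.9% and 7.07% with collapsed duplicates, 17.6%, 22.5% and 18.7% with bins called anew on fragments, 16.4%, 20.3% and 15.1% with the chromosome 7 median, 17.0%, 20.5% and 16.4% with a threshold of 5, 14.998%, 19.3% and 14.03% with a threshold of 20, and 14.1%, 18.1% and 8.65% without the 200 bp. Under the fragment alternative the bins were called anew and each fragment was placed once, on the lowest-numbered chromosome where its mates lay on different ones. The shares over fragments of 17.6%, 22.0% and 17.9% in the report kept the bins called on reads and counted every fragment with a mate in the interval, so numerator and denominator both differ.

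The fold of the narrow site was 50.6, 56.1 and 52.3 with a quality of at least 30, 32.6, 44.6 and 33.8 with collapsed duplicates, 93.5, 116 and 145 with fragments, 79.0, 112 and 95.7 with the chromosome 7 median, 87.2, 107 and 98.6 with empty bins in the median, and 60.1, 82.8 and 41.5 without the 200 bp. Its ratio over B73 was 0.967 in F3-152 and 1.07 in F3-600 with a quality of at least 30, 0.966 and 1.32 with collapsed duplicates, 0.644 and 0.800 with fragments, 0.826 and 1.17 with the chromosome 7 median, 0.884 and 1.08 with empty bins in the median, and 1.45 and 1.998 without the 200 bp. In the bin starting at 56650001 the ratio of F3-600 turned to 1.29 with collapsed duplicates, 1.01 with the chromosome 7 median and 2.62 without the 200 bp, and that of F3-152 to 1.64 without the 200 bp. The cause of these changes was not tested. No paired analysis was possible because each line had 1 library and no test was run, and no library could be left out for the same reason.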

Other observations

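Across the 1600 bins the F3 lines resembled each other more than either resembled B73. Pearson's r of the log2 folds (0.1 added) was 0.94 between F3-152 and F3-600, against 0.74 between F3-152 and B73 and 0.71 between F3-600 and B73, with Spearman's rho of 0.845, 0.586 and 0.535. B73 was the shallowest library, and neighbouring bins and mappability are shared, so these values are a description. Over the 40 windows of 1 kb at the narrow site, r of log2(reads + 1) was 0.96, 0.95 and 0.91 in the same order. The bin-by-bin ratio to B73 had a median of 1.19 in F3-152 over 1535 bins with reads in both, and of 1.01 in F3-600 over 1533, against 0.978 and 0.959 over chromosomes 1 to 10.

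At the lower end of the interval, the bin just inside was at 1.29, 0.734 and 0.781 times the median in F3-152, F3-600 and B73, and the bin just outside at 2.09, 1.44 and 1.59. At the upper end the values were 1.02, 0.719 and 0.656 inside and 1.46, 1.25 and 1.47 outside. The bin just outside was higher than the bin just inside at both ends in each library.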
